A study of Drosophila melanogaster with 2 samples.

Results

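The genes described here encode the subunits of the vacuolar ATPase of Drosophila melanogaster and were taken by symbol, as all protein-coding genes whose name begins with Vha. There are 33 of them among 13968 protein-coding genes, and their binding by the transcription factor Adf1 was read from peak lists of a chromatin immunoprecipitation experiment (ChIP-seq). The embryos, aged 0 to 24 h and taken whole, carried a transgene for Adf1 fused to enhanced green fluorescent protein (eGFP), and an antibody against the tag was used on chromatin sheared to 200 to 800 bp. The experiment holds 1 group, Adf1-GFP embryos, in 2 biological replicates with 1 library each, and the authors called peaks against a control file that was not analysed here. No untreated or untagged group was available for comparison. Whole embryos mix all tissues, so a peak does not tell in which cells the protein was bound.

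The vacuolar ATPase is a rotary proton pump that acidifies lysosomes, endosomes and secretory vesicles, and in insects it also energises the plasma membrane of transporting epithelia. Its soluble V1 sector hydrolyses ATP and turns a shaft, and its membrane V0 sector carries protons through a ring of proteolipids. Flies have a single gene for some subunits and several for others. The genes were sorted by general knowledge into 13 main subunit genes, which are either the only gene of their subunit or the member known as the principal one, and 18 extra paralogues. VhaAC45 and VhaAC45RP, which encode accessory membrane proteins, formed a class of 2. Adf1, first described at the Adh promoter, binds DNA through a MADF domain, and its classical site contains repeated GCN triplets.

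Some of the sequences under the peaks and before the starts are shown first. They are from the RefSeq Release 6 genome, the build of the peak lists (dm6), read 5′ to 3′ on the strand of the Vha gene. Except where stated, each is the window of 101 bp centred on a summit, the position of highest signal in a peak. Bases of annotated exons are cut off. The later counts of motifs also cover windows and promoters that are not printed here. Capitals mark the triplet repeat GCNGCNGC at Vha100-2, the DRE motif TATCGATA at VhaSFD and the long E-box TCACGTGA in a stretch of 30 bp at Vha68-2, chr2L:12975292-12975321 (plus), that lies outside the summit windows. The genes are the main A subunit gene Vha68-2 at chr2L:12974140-12974240 (plus strand), its paralogue Vha68-1 at chr2L:13004184-13004284 (minus), the H subunit gene VhaSFD at chr2L:16727827-16727921 (minus) and the proteolipid paralogue Vha16-5 at chr2L:10737286-10737344 (minus). For Vha100-2, the main a subunit gene, and Vha55, the B subunit gene, the 100 bp before the start are shown instead, chr3R:18399170-18399269 and chr3R:12627830-12627929 (both minus), because the summit of Vha100-2 lies in an exon and that of Vha55 is in the ranked lists alone. The whole window of Vha68-2 and Vha68-1 could be shown, and the others are shortened by exons of the Vha gene or of a neighbour.
Vha68-2: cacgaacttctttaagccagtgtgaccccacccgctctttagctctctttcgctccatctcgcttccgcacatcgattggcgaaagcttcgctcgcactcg
Vha68-1: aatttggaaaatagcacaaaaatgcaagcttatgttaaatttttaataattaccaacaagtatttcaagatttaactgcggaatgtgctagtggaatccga
VhaSFD: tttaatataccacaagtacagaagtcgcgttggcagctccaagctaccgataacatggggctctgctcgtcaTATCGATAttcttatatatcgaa
Vha16-5: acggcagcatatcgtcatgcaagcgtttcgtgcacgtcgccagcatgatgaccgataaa
Vha100-2: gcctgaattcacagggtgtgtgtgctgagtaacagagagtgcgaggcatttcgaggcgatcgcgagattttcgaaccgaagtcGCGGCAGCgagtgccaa
Vha55: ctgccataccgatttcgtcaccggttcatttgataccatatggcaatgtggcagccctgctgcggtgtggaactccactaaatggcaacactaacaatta
Vha68-2 long E-box: tcaaagctctgTCACGTGAaacgaaagctc

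Main subunit genes carried Adf1 summits at their starts more often than the extra paralogues did. In the conservative list, which the authors called across both replicates, 6 of 13 main genes had one or more summits no farther than 500 bp from an annotated transcription start site (TSS), or 46.2% (23.2 to 70.9%). These are Vha68-2, Vha36-1, Vha44 and VhaSFD of the V1 sector, and Vha16-1 and Vha100-2 of the V0 sector. Of the 18 extra paralogues only Vha68-1 and Vha16-5 had one, or 11.1% (3.10 to 32.8%). Neither accessory gene had one. Over all Vha genes the count was 8 of 33 (24.2%, 12.8 to 41.0%), against 18.9% of all protein-coding genes in the same list. The share of the whole family is thus near the background, and the intervals of the main genes and the paralogues overlap. Ranges are 95% Wilson intervals for counting error; genes are not replicates, and the difference between the classes was not tested.

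The same order held in each of the 4 thresholded lists, as the plot of shares by list shows. The optimal list also covers both replicates and is longer. There 6 of 13 main genes and 2 of 18 paralogues were bound, with a background of 23.2%. In the list of replicate 1 alone the counts were 3 of 13 and 2 of 18, against 14.3% of all genes. In that of replicate 2 alone they were 7 of 13 and 2 of 18, against 23.2%. The 2 paralogues were Vha68-1 and Vha16-5 every time, while the set of main genes changed. In all 4 lists 5 genes were bound, namely Vha68-2, Vha16-1, Vha100-2, Vha68-1 and Vha16-5. They are the same 5 that the list of replicate 1 holds, or 15.2% of Vha genes against 14.3% of all genes in that list. The share of all genes bound in all 4 lists was not counted. VhaSFD, Vha36-1, Vha44, Vha26 and Vha13 were bound in some lists only, and the other 23 genes in none. These lists share the same libraries, so they are no independent repeats except for the lists of the single replicates.

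**Figure D1:**
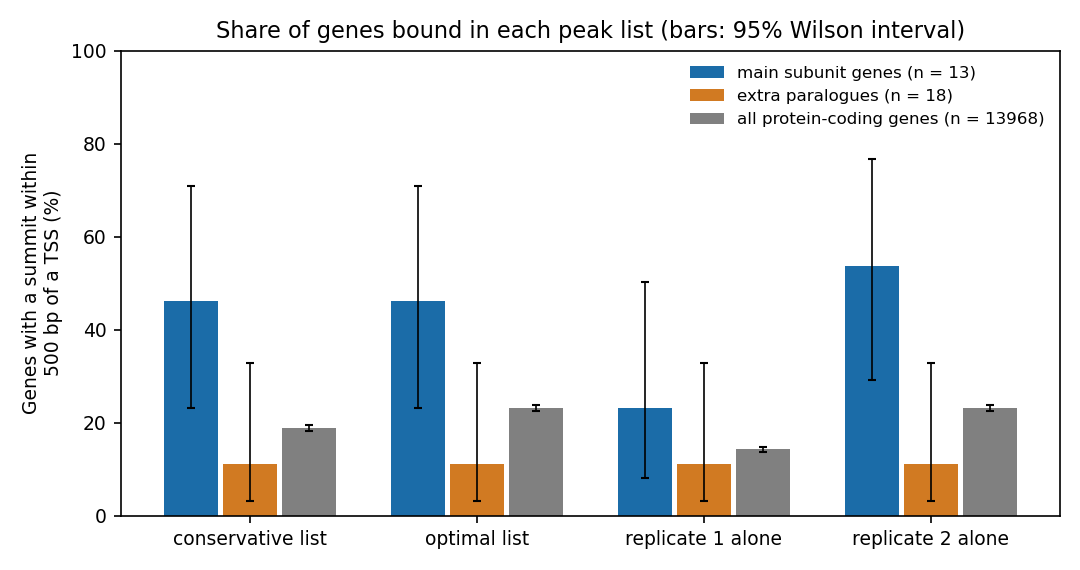
Percentage of main subunit genes, extra paralogues and all protein-coding genes with a summit within 500 bp of a TSS (vertical axis) in each of 4 peak lists (horizontal axis); error bars are 95% Wilson intervals. Main genes stand at 46.2% in the conservative list and at 23.1% in the list of replicate 1 alone, and the paralogues at 11.1% in every list.

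Within the V1 sector, the A subunit hydrolyses ATP, and its 3 genes lie close together on 2L. Vha68-2 (FBgn0263598, chr2L:12974322-12978607) had 2 conservative summits, one 132 bp upstream of a TSS with a signal of 151.2 and one 32 bp downstream of another with a signal of 147.0. Signal here is the number that the authors' peak caller gave the peak; its scale is unstated, so it serves to describe peaks within 1 list. In replicate 1 the same gene had summits with signals of 78.2 and 60.8, and in replicate 2 of 75.1 and 8.40. Vha68-1 (chr2L:13000770-13004107) had conservative summits 127 and 335 bp upstream, with signals of 133.6 and 15.0. Replicate 1 had 1 summit there with a signal of 58.1, and replicate 2 had 1 with 73.8. The weaker of the conservative pair has a signal that only 0.0229% of the list falls below, although its score is 1000, the maximum; in the ranked list behind the optimal list the same summit scored 190. Vha68-3, between the other two A genes, had none, and its nearest conservative summit was 4390 bp away.

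The D subunit belongs to the rotating shaft, C and H sit where V1 meets V0, and E and G form the peripheral stalks that hold the stator still. At the shaft gene Vha36-1 (chr2R:15541435-15542498) the summit was 37 bp upstream with a signal of 112.3 in the conservative list. At Vha44 (C subunit, chr2R:16324813-16336637) it was 97 bp upstream with 124.4, and at VhaSFD (H subunit, chr2L:16722883-16727826) 45 bp upstream with 94.4. These 3 genes were in the list of replicate 2 but not in that of replicate 1. Replicate 2 gave signals of 69.3, 96.3 and 55.1 at Vha36-1, Vha44 and VhaSFD, each with a score of 1000. Replicate 1 had a summit at each start in its ranked list, but with best scores of 411, 442 and 81, below the 830 that its thresholded list requires. VhaSFD is also missing from the optimal list, where its ranked score of 801 fell short. The stalk gene Vha26 (E subunit) was bound in the optimal list alone, 165 bp upstream with a signal of 88.4, and Vha13 (G subunit) in the list of replicate 2 alone, 110 bp downstream with 55.0.

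In the V0 sector, subunit a holds the channels by which protons enter and leave the ring, and subunit c is the proteolipid that builds it. Vha100-2 (chr3R:18390323-18399169) had the strongest conservative summit of any main gene, 178.1 at 22 bp downstream of its outermost TSS, and another of 167.0 that lies 329 bp upstream of an internal TSS. Replicate 2 had both, with signals of 121.1 and 119.9. Replicate 1 had only the internal one in its thresholded list, with 57.7, below the summits of Vha68-2 and Vha16-1 there. None of the 4 paralogues of subunit a, Vha100-1, Vha100-3, Vha100-4 and Vha100-5, was bound in any list, Vha100-1 being known as the form of synaptic vesicles in neurons. At Vha16-1 (chr2R:6625242-6633090), the main proteolipid gene, the conservative summit was 145 bp upstream with a signal of 149.9, and replicate 1 had 1 thresholded summit of 73.7, 76 bp upstream. Replicate 2 had 1 of 68.0 at 146 bp upstream and another of 76.1 that lies 213 bp upstream of an internal TSS. Of the 4 proteolipid paralogues, Vha16-5 (chr2L:10736319-10737043) had the highest signal of the whole family in the conservative list, 204.2 at 293 bp upstream. It was also highest in replicate 2 with 132.1, while in replicate 1 its 71.5 was below the strongest summits of Vha68-2 and Vha16-1. Vha16-2, Vha16-3 and Vha16-4 had no thresholded summit. The genes of c″, d and e, the other membrane subunits, had none either, main genes included.

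The 11 conservative summits at Vha genes were of ordinary strength for the list. Their median signal was 147, against 150.6 for all 4370 summits, and 4 of the 11 were above 150.6. All 5 genes bound in all 4 lists had a conservative summit of at least 133.6, while Vha36-1, Vha44 and VhaSFD had 94.4 to 124.4. The 5 are those that passed the threshold in replicate 1, which enters the conservative list too, so the contrast is no independent result. Of the 11, 9 lay upstream of the nearest TSS of the gene and 2 downstream. Distances ran from 22 to 335 bp, with 8 summits within 150 bp. The rule admits only summits within 500 bp, and the positions of summits at all genes were not counted for comparison. The 3 summits farther out belong to Vha16-5, Vha68-1 and the internal start of Vha100-2, and each of them lies nearer to the start of a neighbouring gene.

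**Figure D2:**
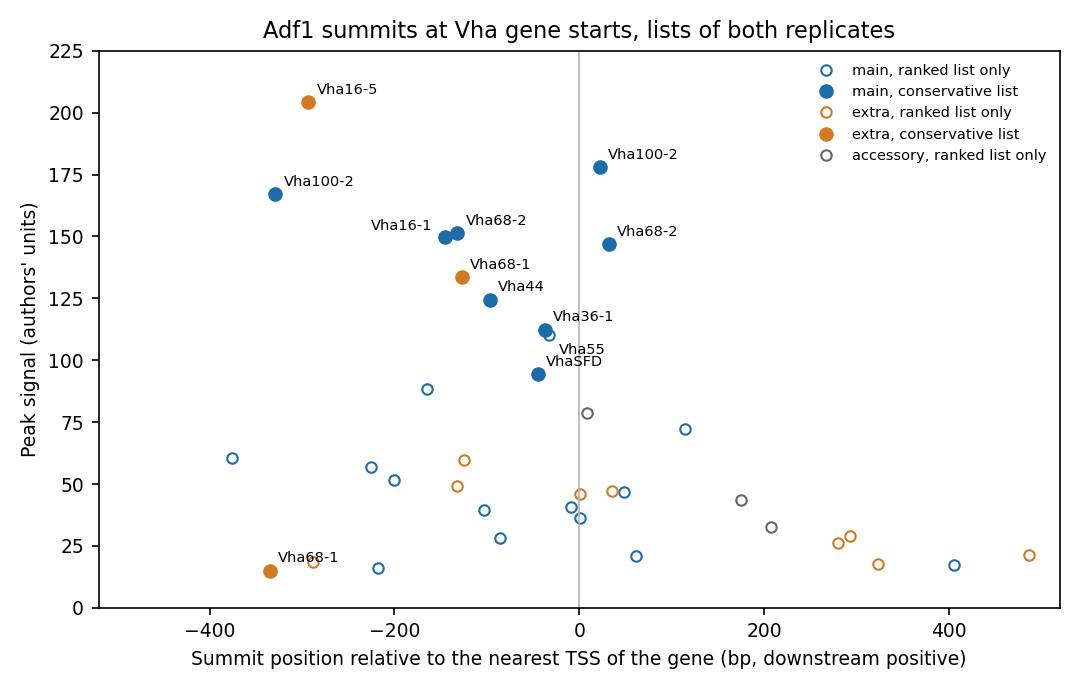
Distance of each summit from the nearest TSS of its Vha gene (horizontal axis, bp, downstream positive) against the authors' peak signal (vertical axis), for the conservative list (filled) and for summits of its ranked list that did not enter it (open), coloured by gene class. The filled points lie between 94.4 and 204.2 except a weak one of 15.0 at Vha68-1, and Vha55 is an open point among them at 110.1.

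In the ranked lists, summits of any score, above or below the threshold, were present at most main genes. The authors' ranked lists also hold peaks below the threshold. Each peak has a scaled score from 0 to 1000 based on the irreproducible discovery rate (IDR). The IDR asks how well a peak's rank is repeated. The lowest score in each thresholded list was 830, which stands for an IDR of 0.01. In the ranked list behind the conservative one, 12 of 13 main genes had a summit within 500 bp, as did 9 of 18 paralogues and both accessory genes, with a background of 51.4%. Best scores ran from 338 to 1000 at the 12 main genes and from 62 to 1000 at the 9 paralogues. The one main gene without a summit was Vha14-1 (F subunit). In the ranked list of replicate 1 summits were found at 10 of 13 main genes and 9 of 18 paralogues, against 47.3% of all genes. In that of replicate 2 they were found at 13 of 13 and 14 of 18, against 64.1%. Vha100-3 and Vha14-2 had no summit within 500 bp in the ranked list of either replicate or of both together.

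In the conservative ranked list, the scores nearest below the threshold were at the accessory gene VhaAC45 and the main gene Vha26. The share of all genes with scores in this range was not counted. VhaAC45, the accessory Ac45 subunit gene on 2R, scored 819 with a summit 8 bp downstream of its start and a signal of 78.7. Vha26 scored 793, and Vha13 was farther below at 612. The other accessory gene, VhaAC45RP, scored 214. Just inside were VhaSFD with 937 and Vha44 with 958. The V0 genes VhaAC39-1 (subunit d), VhaM9.7-b (e) and VhaPPA1-1 (c″) followed at 434, 405 and 338. Among unbound paralogues the highest scores were 511 at VhaM9.7-c, 483 at VhaAC39-2 and 327 at VhaM9.7-a. The groups overlap, since VhaM9.7-c and VhaAC39-2 stood above 3 of the main genes with a ranked summit.

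**Figure D3:**
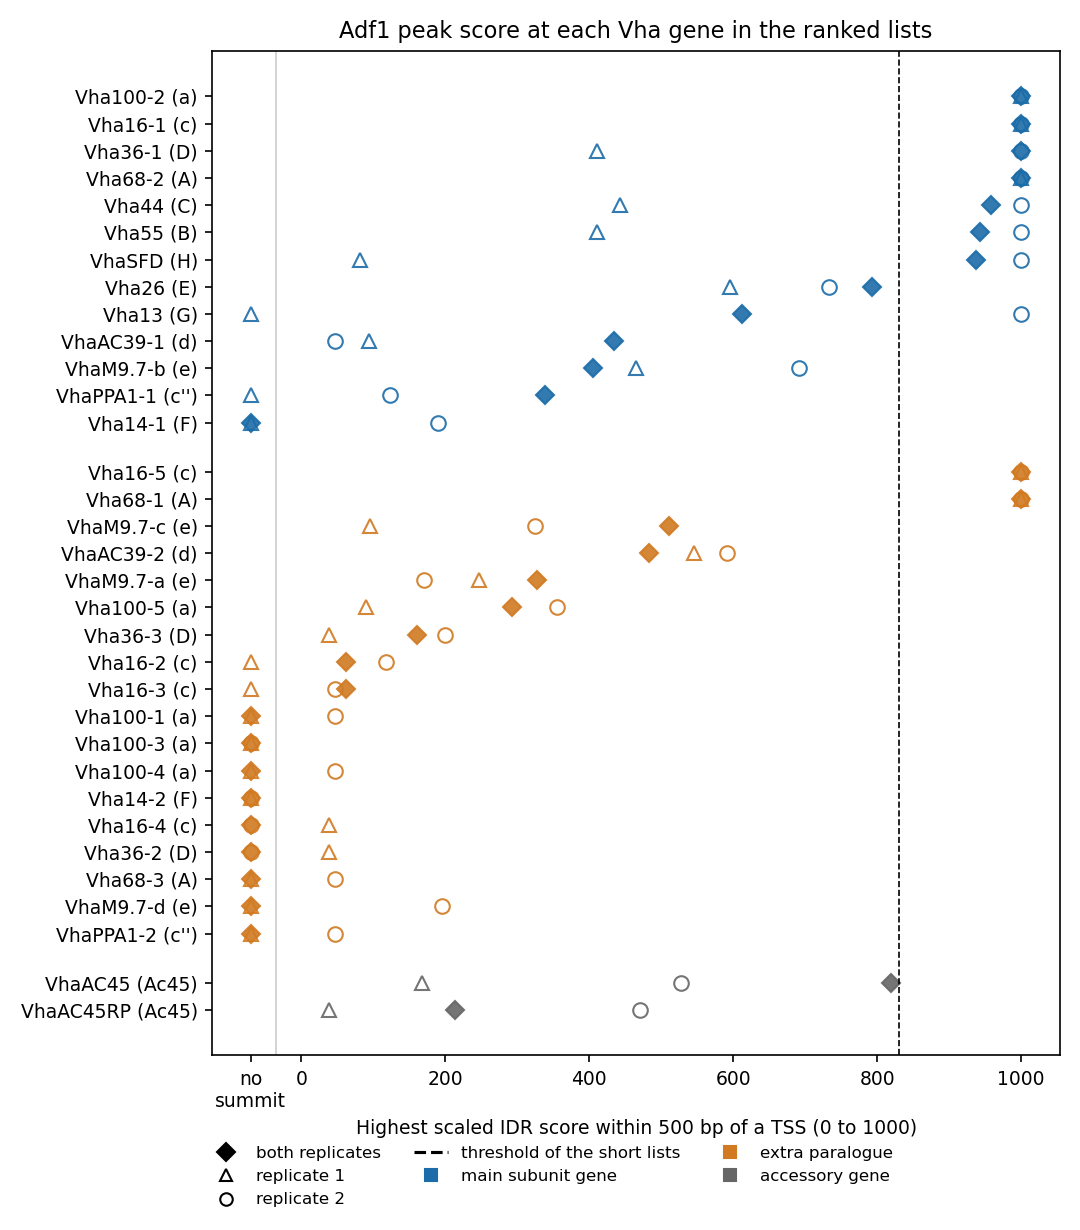
Highest scaled IDR score of any summit within 500 bp of a TSS (horizontal axis, 0 to 1000) for each Vha gene (vertical axis, subunit in brackets), from the ranked lists of both replicates together (diamonds), replicate 1 (triangles) and replicate 2 (circles); the dashed line is the score of 830 required by the thresholded lists. Of the 13 main genes, 7 have a diamond right of the line, and of the 18 paralogues 2 have.

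Vha55, the gene of the nucleotide-binding B subunit and the only one for that subunit, lies right of that line without being in a thresholded list. Its summit, 33 bp upstream of the outermost TSS (chr3R:12623762-12627829), scored 943 in the ranked list of both replicates with a signal of 110.1. In the ranked list behind the optimal list it scored 1000. Replicate 2 gave it 1000 with a signal of 77.1, and replicate 1 gave it 411 with 32.1. It is 1 of 161 peaks that passed the score in the conservative ranked list and were left out of the thresholded list, for a reason that is not given in the sources used here. With all 161 put back, 7 of 13 main genes and 2 of 18 paralogues are bound, and 19.3% of all genes.

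Both bound paralogues share their summits with another gene that starts head to head with them. Vha68-1 and mTor, the gene of the growth-regulating kinase TOR, start 373 bp apart in opposite directions. The stronger summit is 127 bp from Vha68-1 and 246 bp from mTor, and the weaker one is 38 bp from mTor. The summit at Vha16-5 lies 9 bp from the start of CG12299, which is 302 bp from that of Vha16-5. Among main genes, the summit of Vha36-1 is 37 bp from its own start and 35 bp from that of CG8187, and that of Vha44 is 97 bp from its own and 26 bp from that of Hmgs, which encodes HMG-CoA synthase. Internally, Vha100-2 shares its summit of 167.0 with the SNARE gene Vti1b, 262 bp away. In the optimal list, the summit of Vha26 is 165 bp from its own start. It is 139 bp from that of noi, which starts on the opposite strand. The peaks do not tell which of 2 neighbouring starts Adf1 relates to. With each conservative summit given only to the nearest start, 4 of 13 main genes and 1 of 18 paralogues keep one. They are Vha68-2, VhaSFD, Vha16-1 and Vha100-2, and the paralogue Vha68-1. That is 5 of 33 Vha genes (15.2%), against 15.3% of all genes under the same assignment.

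Main genes and paralogues also differ in the architecture of their starts. A protein-coding gene on the opposite strand starts within 1000 bp upstream of 8 of 13 main genes (61.5%), of 5 of 18 paralogues (27.8%) and of 36.2% of all genes. Of the 8 main genes with such a neighbour 3 were bound (37.5%), and of the 5 without 3 were bound (60%). Among paralogues 2 of 5 with a neighbour and 0 of 13 without were bound. Across all genes, 26.8% of those with such a neighbour and 14.4% of those without were bound, so the main genes run in the opposite order, with few genes in each count. More than 1 TSS is annotated for 5 of 13 main genes (38.5%) and 3 of 18 paralogues (16.7%), against 26.5% of all genes. Of those 5 main genes 4 were bound, and of those 3 paralogues none was. Over all genes 34.8% of those with several TSSs and 13.1% of those with 1 were bound. The part of these features in the difference between the classes was not tested.

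The letters of the Adf1-type triplet repeat were found at a pair of Vha genes, Vha100-2 and Vha16-1. GCNGCNGC, searched on both strands, was found in 1 of the 11 summit windows of 101 bp (9.09%) and in 16% of all 4370 windows. That window is the one at the outermost start of Vha100-2, and its repeat is marked in the stretch shown above. In promoters, taken as 250 bp before and 50 bp from each TSS, it was present at Vha100-2 and Vha16-1, or 2 of 33 genes (6.06%), against 13.3% of all genes. Among main genes that is 2 of 13 (15.4%), and among bound Vha genes 2 of 8 (25%), against 27.8% of all bound genes. Both carriers are bound main genes with 2 TSSs each, and none of the 18 paralogues holds the repeat. At Vha16-1 the repeats begin 24 and 28 bp downstream of its 2 starts, 875 and 173 bp from the nearest conservative summit. The first is at the internal start, where replicate 2 had a thresholded summit 213 bp upstream. The DRE motif TATCGATA, known for housekeeping promoters, occurred in the window of VhaSFD, where its start lies 22 bp from the summit, and in the promoter of Vha55, so in 2 of 33 promoters against 10.2% of all. GAGAGAG was found in 3 of 8 bound Vha promoters, Vha68-2, Vha16-1 and Vha100-2, and in 1 of 25 others, Vha100-5. It was present in promoters of 9.06% of all genes and 19.3% of all bound ones. None of the 11 summit windows held it, against 5.65% of all windows. The matches of Vha68-2 and Vha16-1 lie 694 bp or more from the nearest conservative summit, and that of Vha100-2 131 bp. Other lists had nearer summits. At Vha16-1 the matches lie 98 and 85 bp before the internal TSS, and replicate 2 had a summit 213 bp before it. At Vha68-2 the match lies 96 bp before an internal TSS. The conservative ranked list had a summit 86 bp before that TSS, with a score of 168. Vha68-2, Vha16-1 and Vha100-2 have 5, 2 and 2 TSSs, so more of their sequence was searched. TATAAA was present in 54.5% of Vha promoters and 51.2% of all. The 11 windows had a median GC content of 46.5% (27.7 to 65.3%), against 48.5% for all windows. The lowest values, 29.7 and 27.7%, were at Vha68-1.

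The E-box bound by Mitf, the fly counterpart of mammalian TFEB and a known activator of vacuolar ATPase genes, was looked for as CACGTG and in its longer form TCACGTGA. CACGTG was present in the promoters of 5 of 33 Vha genes (15.2%), against 5.29% of all genes. They were Vha68-2, Vha44, Vha55, VhaM9.7-d and VhaAC45RP. The first 3 have 5, 2 and 3 TSSs, and more TSSs mean more sequence searched. TCACGTGA was present in the promoters of Vha68-2 and Vha44 (6.06%), against 0.200% of all genes. In Vha68-2, in the stretch of 30 bp printed above, it lies 99 bp before an internal TSS and 907 bp from the nearest conservative summit. The conservative ranked list had a summit 61 bp downstream of that TSS, with a score of 62. In Vha44 it begins 48 bp before the start and 49 bp from the summit. None of the 11 summit windows contained CACGTG in full, against 1.35% of all windows. Every TCACGTGA also counts as a CACGTG. Matches describe these letters only, and the binding of Mitf was not measured.

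Genes that work with the pump were looked at in 4 lists chosen from general knowledge. Of 15 genes by which lysosomes control the kinase complex mTORC1, 5 were bound in the conservative list (33.3%, 15.2 to 58.3%), against the background of 18.9%. These were Lamtor3 (signal 445.1), Sesn (460.6), raptor (326.3), Wdr24 (199.8) and mTor, the last through the summits it shares with Vha68-1, and the same 5 were bound in every thresholded list. Of 13 genes of lysosomal proteins 4 were bound in the conservative list (30.8%, 12.7 to 57.6%), against the same 18.9%. They were Cln7 (341.6), Hexo2 (257.7), the cathepsin gene CtsF (172.7) and the sterol carrier gene Npc2a (90.0). CtsL1, another cathepsin gene, was bound in the optimal list and that of replicate 2. The assembly factor genes Rbcn-3A and Rbcn-3B and the regulator Mitf were bound in no list. The mitochondrial ATP synthase, a rotary relative of the pump, had 3 of 13 genes bound in the conservative list (23.1%, 8.18 to 50.3%). They were blw (123.6), ATPsynE (94.6) and ATPsynF (83.9). In the list of replicate 1 alone only ATPsynF was bound (7.69%), against 14.3% of all genes. In that of replicate 2 alone 5 were bound (38.5%), against 23.2% of all genes, with ATPsynbeta and ATPsyngamma beside the other 3. Intervals of these gene lists include the background of each peak list, except for the mTORC1 genes in that of replicate 1. Their interval there, 15.2 to 58.3%, starts just above the 14.3% of all genes. No difference from the background was tested.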

How the data were processed

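Adf1-GFP ChIP-seq was done on whole embryos in 2 replicates. The deposited peak lists, made by the authors from alignments and a control file on dm6, give for each peak a scaled IDR score, a signal of unstated scale, a summit offset and, in ranked lists, the −log10 global IDR. Which aligner and peak caller made them is not given in the sources used here. The lists hold no read counts, so depth is unknown; intervals cover counting error only.

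Summits on 7 chromosome arms were assigned to protein-coding genes of Ensembl release 115 (BDGP6.54) within 500 bp of any TSS. The assignment was checked on planted positions. No model was fitted and no test was run. Members, classes, related lists and motifs were chosen with earlier results of these data known. The text names every Vha gene with a thresholded summit, and all bound genes of the related lists; 2 listed symbols had no match (Vma21 and trpml). Of the accessory genes planned, VhaM8.9 and VhaAC45L had no match, and VhaAC45RP was used for VhaAC45L. Promoter and window sequence came from the RefSeq Release 6 genome. Alternatives were other lists, distances, start sites, assignments and classes, and, added after seeing the data, missing peaks put back. Scripts ran under Python 3.11.15 with NumPy 2.4.6 and SciPy 1.17.1, and figures were drawn with Matplotlib 3.10.9.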

Additional observations from a re-analysis of the deposited data

Results flagged for a closer look

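Vha55 stood out because its summit passed the required score of 830 in 3 ranked lists and is in none of the thresholded lists used for the counts. It scored 943 in the conservative ranked list, 1000 in the ranked list behind the optimal list and 1000 in that of replicate 2. The cause was not tested.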

How the results depend on the processing

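Main subunit genes had the larger share bound in every alternative tried, and the counts stayed within 1.5 times the reported ones except as follows. By the 2185 summits with higher signal, 3 of 33 Vha genes, 2 of 13 main genes and 1 of 18 paralogues were bound, against 9.71% of all genes. Within 200 bp, 6 of 13 main genes and 1 paralogue, Vha68-1, were bound, against 15.2% of all genes. By nearest start, 5 of 33 Vha genes (15.2%) and 1 paralogue were bound, against 15.3% of all genes. The list of 1 replicate alone gave 5 to 9 Vha genes, 3 to 7 main genes and 2 paralogues in either; the low values are those without replicate 2, and the cause was not tested. No paired analysis was possible because there is 1 group. With 13 and 18 genes per class the intervals are wide, peak lists carry no depth, and the classes rest on general knowledge of the family.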
